A study of Mus musculus with 2 samples.

Results

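The genes described here are 8 members of the epidermal growth factor (EGF) system, 6 that encode ligands (Hbegf, Areg, Ereg, Tgfa, Nrg1 and Btc) and 2 that encode receptors (Egfr and Erbb2). They were selected by symbol and not by their values, and all 8 were found among the 32285 genes of both count matrices. The study compared lung endothelial cells (ECs) of male C57BL/6 wild-type mice, 8 to 10 weeks old per the methods for tail vein injection, 6 h after a tail vein injection of 100 microlitres, which held either saline alone (control) or 400000 cells of the mouse melanoma line B16-F10, stained with a tracker dye. Cells positive for the endothelial protein Pecam1 and negative for the leukocyte protein Ptprc were sorted, the B16-F10 sample also received dyed melanoma cells from the same lungs, and single-cell RNA sequencing was run on 1 library per group. The labels give 2 mice per treatment and the methods 3 pooled mice. With no replicate library in either group, no test was possible and the intervals below cover counting error only.

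The control library held 85794655 unique molecular identifiers (UMIs, each marking 1 captured RNA molecule) and the B16-F10 library 104978816. After filtering, 7830 and 7767 cells remained, with a median of 7510 and 8557 UMIs, of which 6990 and 6194 were ECs. Classes were named from marker genes: general capillary (gCap-like, 4821 control and 4373 B16-F10 cells), aerocyte capillary (aCap-like, 1447 and 969), artery-like (219 and 169), vein-like (264 and 262) and lymphatic (LEC-like, 58 and 51). A further endothelial cluster, led by Csf2 and Sox9 and given no vessel name, held 9 control and 340 B16-F10 cells. With 1 library per group, a cluster that lies mostly in a single library cannot be told apart from a property of that library. The EGF system genes were left out when cells were clustered, so that their values did not define the classes. Of the barcodes with at least 300 genes, 36 sequences occurred in both libraries.

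EGF family ligands are made as membrane proteins and are released when metalloproteases such as ADAM17 cut them near the membrane. The released or membrane-held ligand binds a receptor of the ERBB family, which pairs with another receptor, and the pair signals through adaptors and RAS to the kinases of the ERK pathway. HB-EGF, TGF-alpha, amphiregulin, epiregulin and betacellulin bind the EGF receptor, and some of them ERBB4, while neuregulins bind ERBB3 and ERBB4. ERBB2 binds no known ligand by itself and serves as a partner for the other receptors. In the lung, epithelial cells are a well known site of the EGF receptor, and HB-EGF is known as a growth factor that endothelium, epithelium and macrophages can make.

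Hbegf encodes heparin-binding EGF-like growth factor (ENSMUSG00000024486, GRCm38 chromosome 18, 36504927 to 36515805, minus strand). Over all ECs, 1043 UMIs were counted in the control and 6002 in the B16-F10 library. Levels are given as counts per 1000000 UMIs of the cells summed (CPM), and this corresponds to 18.9 and 104 CPM, a log2 ratio of 2.47 (95% interval 2.37 to 2.56). Among 14338 genes measured over all ECs, 3.36% were higher by at least 2-fold and 3.38% lower. Most of the Hbegf difference lay in the Csf2/Sox9 cluster. Without that cluster, the ECs held 1028 and 1538 Hbegf UMIs, or 18.6 and 28.4 CPM, and the log2 ratio was 0.61 (0.49 to 0.72).

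In gCap-like ECs, the largest class, there were 892 Hbegf UMIs in the control and 1320 in the B16-F10 library, or 24.8 CPM (23.2 to 26.4) and 34.7 CPM (32.8 to 36.6). The intervals did not overlap, and the ratio was 1.40-fold (1.29 to 1.53), or 0.49 on the log2 scale (0.36 to 0.61). It did not reach 2-fold, which 2.96% of 13209 measured genes (at least 50 UMIs over both libraries) passed upward and 2.63% downward in this class. The median log2 ratio of those genes was -0.04. At least 1 Hbegf UMI was found in 13.7% (12.7 to 14.7) of the control and 19.8% (18.7 to 21.04) of the B16-F10 cells. With every cell thinned to 2000 UMIs these shares were 4.22% (3.67 to 4.84) and 6.21% (5.51 to 6.97), leaving out 63 and 28 shallower cells.

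The gCap-like class consisted of 7 clusters with unequal shares in the libraries, and Hbegf differed among them. One cluster, for example, had 805 control and 131 B16-F10 cells. The class ratio therefore combines levels within clusters with the mix of clusters, and the part of each was not tested. In the B16-F10 library its level ran from 22.7 CPM (17.6 to 28.8) to 49.5 CPM (45.0 to 54.3). The highest level was in a cluster of 66 control and 960 B16-F10 cells with Lalba, Tmem252 and Adamts9 as leading genes, where it was 21.2 CPM in control (11 UMIs, 10.6 to 37.9) and the log2 ratio 1.22 (0.37 to 2.24). The interval of the ratio lay above 0 in 2 other clusters, at 0.68 (0.38 to 0.99) and 0.46 (0.18 to 0.73). It included 0 in the remaining 4 clusters, among them a cluster led by Ntrk2, Sema3c and Sox17 in which Hbegf was 32.6 CPM in control and 27.8 CPM in B16-F10 lungs, a log2 ratio of -0.23 (-0.60 to 0.15).

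The aCap-like ECs had little Hbegf in control lungs and more in B16-F10 lungs. There were 18 UMIs in 14 of 1447 control cells and 107 UMIs in 46 of 969 B16-F10 cells, corresponding to 1.37 CPM (0.81 to 2.17) in control lungs against 9.84 CPM (8.06 to 11.9). Their log2 ratio was 2.84 (2.11 to 3.65), past 2-fold, as were 2.16% of 11109 measured genes upward. The class was made of 2 clusters with unequal shares in the libraries. A cluster of 788 control and 896 B16-F10 cells had 16 and 103 UMIs and a log2 ratio of 2.42 (1.65 to 3.28), and another of 659 and 73 cells had 2 and 4 UMIs, 0.45 CPM (0.055 to 1.63) and 9.84 CPM (2.68 to 25.2). With finer clustering (Leiden resolution 1.6), the EC cluster highest in Csf2 and Sox9 was an aCap-like one of 1 control and 37 B16-F10 cells. It held 60 Hbegf UMIs in the B16-F10 library. How many of its cells belonged to the aCap-like class described here was not examined. A single B16-F10 aCap-like cell held 14 of the 107 UMIs, and a single control cell 4 of the 18. Leaving out the cell with most Hbegf in each library, a check chosen after seeing the data, gave a log2 ratio of 3.00 (2.18 to 3.93). Free RNA would supply an estimated 0.26 and 0.93 CPM, below the level in either library. The share of aCap-like cells with an Hbegf UMI was 0.968% in control (0.530 to 1.62, median depth 9161 UMIs) and 4.75% in B16-F10 lungs (3.50 to 6.28, median depth 11361), or 0.420% (0.154 to 0.912) and 1.45% (0.80 to 2.43) after thinning. In melanoma-like cells of the B16-F10 library it was 2 of 81, or 2.47% (0.30 to 8.64, median depth 7610). That interval includes the unthinned aCap-like share of both libraries. With so few cells of another type and depth, the comparison cannot tell whether either share lies above background.

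Among the larger vessels, the Hbegf level of the B16-F10 library lay above that of the control in artery-like and below it in vein-like ECs, and neither difference held beyond counting error under every setting. Artery-like ECs had 50 and 74 UMIs, or 29.4 CPM (21.8 to 38.8) and 46.5 CPM (36.5 to 58.3), a log2 ratio of 0.66 (0.12 to 1.21). The interval included 0 when cells were thinned (0.21, -0.79 to 1.21) and with a minimum of 1500 genes per cell (0.35, -0.11 to 0.82). Vein-like ECs had 59 and 35 UMIs, or 20.8 CPM (15.8 to 26.8) and 11.8 CPM (8.19 to 16.4), a log2 ratio of -0.82 (-1.47 to -0.19). A single vein-like control cell carried 16 of the 59 UMIs. Without the highest cell of each library, vein-like ECs had 43 and 32 UMIs, 15.2 and 10.8 CPM, and the log2 ratio of -0.50 (-1.20 to 0.20) included 0. The same held when cells were thinned (-1.18, -2.70 to 0.18) and with no upper limit of genes per cell (-0.31, -0.76 to 0.14). In LEC-like ECs the control library had 1 Hbegf UMI and the B16-F10 library 0, where a floor of 3 counts is 6.23 CPM.

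The order of Hbegf levels among the named classes in control lungs was artery-like, gCap-like, vein-like, LEC-like and aCap-like. The first 3 of these had overlapping intervals, and so did LEC-like and aCap-like ECs. In B16-F10 lungs the order was artery-like, gCap-like, vein-like and aCap-like, with LEC-like ECs at 0. The intervals of artery-like and gCap-like ECs overlapped slightly, those of vein-like and aCap-like ECs overlapped, and the first pair lay above the second. Whether the ratios differ between classes was not tested.

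**Figure D1:**
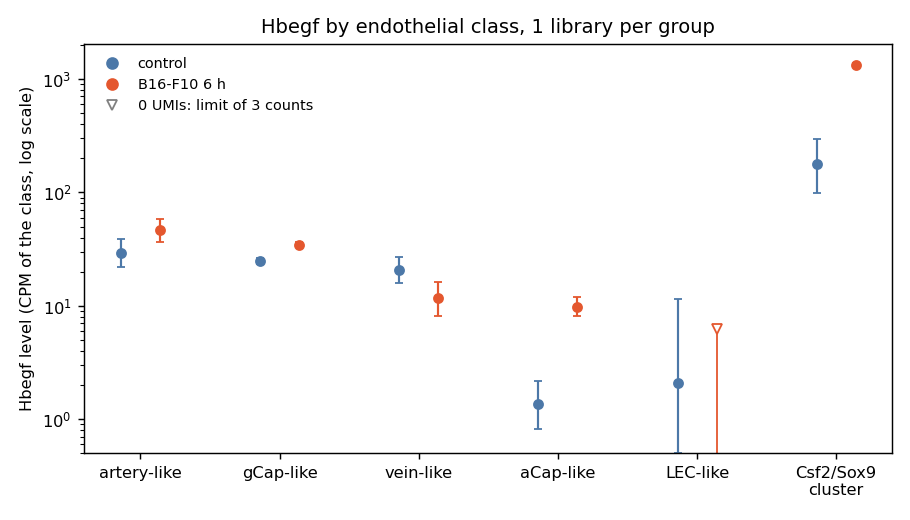
Hbegf level by endothelial class in the control and the B16-F10 library, in CPM of the class on a log axis, with exact Poisson 95% intervals and an open triangle at the limit of 3 counts where no UMI was counted. Intervals that reach below the axis are cut at its lower end. The Csf2/Sox9 cluster of the B16-F10 library, at 1328 CPM, lies above all other classes.

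The Csf2/Sox9 cluster had far more Hbegf than any vessel class. Its 340 B16-F10 cells held 4464 Hbegf UMIs, 1328 CPM (1289 to 1368), against 34.7 CPM in gCap-like ECs of the same library, a log2 ratio of 5.26 (5.17 to 5.35). The 9 control cells held 15 UMIs, 178 CPM (99.6 to 294), with 6 UMIs in each of 2 cells and none in 5 cells. The cluster made up 0.129% of control ECs (0.0589 to 0.244) and 5.49% of B16-F10 ECs (4.93 to 6.09), and its share of all endothelial Hbegf UMIs was 1.44% (0.81 to 2.36) and 74.4% (73.3 to 75.5). This cluster was singled out after values had been seen, and it is the EC cluster with the highest summed level of Csf2, a colony-stimulating factor, and Sox9, a transcription factor. With finer clustering (Leiden resolution 1.6) the same rule picked another cluster, aCap-like with 37 B16-F10 cells and 1.05% of the UMIs, while 299 of the 349 cells stayed together in a cluster with 74.3%. The other 50 cells lay in a mixed cluster kept out of the ECs, so these shares are of fewer UMIs than the 74.4%.

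Within the cluster the number of Hbegf UMIs per cell was uneven. In the B16-F10 library it ran from 0 to 99 with a median of 7 and quartiles of 2 and 21, and 40 of the 340 cells had none. Counted over all ECs without regard to clusters, cells with at least 10 Hbegf UMIs numbered 1 of 6990 in control and 140 of 6194 in B16-F10 lungs. Of these 140 cells, 139 lay in the cluster and the other was aCap-like. They were 2.26% of the ECs and held 63.9% of the Hbegf UMIs. Cells with any Hbegf UMI were 760 (10.9%) and 1285 (20.7%) of ECs. The 5% of ECs with most Hbegf held 60.7% of its UMIs in the control and 78.1% in the B16-F10 library.

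**Figure D2:**
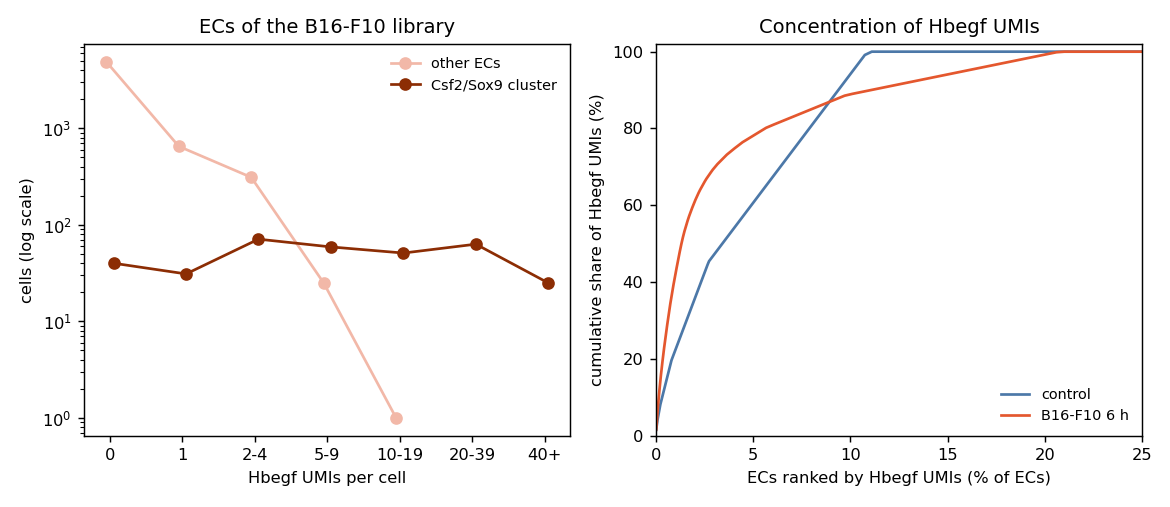
Left, number of B16-F10 ECs (log axis) by Hbegf UMIs per cell, for the Csf2/Sox9 cluster and all other ECs. Right, cumulative share of endothelial Hbegf UMIs over ECs ranked from most to fewest Hbegf UMIs; the top 5% of ECs hold 60.7% in the control and 78.1% in the B16-F10 library.

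The cluster met the endothelial rule, and other marker lists were checked beside it. In its B16-F10 cells Cdh5, the endothelial cadherin, was at 2145 CPM and Pecam1 at 771 CPM, while the summed list of 8 endothelial markers was at 9249 CPM against 15268 CPM in gCap-like ECs. The gCap list was at 4815 and 8514 CPM. The mural list (8 of 8 markers detected in both) was at 253 CPM against 40.1 CPM, of which the contractile gene Tagln was 192 CPM, with Acta2 at 2.98 and Cspg4 at 0.89 CPM. The lymphatic list was at 4752 against 1505 CPM, nearly all of it Lyve1, with Ccl21a and Thy1 at 0 and Prox1 at 0.60 CPM. The platelet list (8 of 8 detected) was at 91.3 against 30.8 CPM, the melanoma list at 35.4 against 41.8 CPM, and the fibroblast list (6 of 7 detected in both) at 13.7 against 11.3 CPM. The part of these markers in the Hbegf level was not tested. Median depth was 10066 UMIs and 3229 genes, against 8413 UMIs and 3262 genes in gCap-like ECs.

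Hbegf was also found in barcodes that carried endothelial markers together with those of other cells and were kept out of the ECs. In a cluster with 8 of 8 epithelial markers as well as fibroblast and mural markers, led by the surfactant gene Sftpc and the club cell gene Scgb1a1, it was 67.4 CPM (51.2 to 87.1) in control and 133 CPM (113 to 154) in B16-F10 lungs. There, 39 of 131 B16-F10 cells had an Hbegf UMI, and a single cell held 26 of the 168 UMIs. In a cluster led by haemoglobin genes Hbegf was 32.0 and 49.5 CPM. In a cluster with mural markers it was 46.3 and 55.3 CPM, a log2 ratio of 0.26 (-0.14 to 0.66). A pair of clusters with platelet markers had 11.1 and 13.3 CPM in control and 49.8 and 107 CPM in B16-F10 lungs. The 81 melanoma-like cells of the B16-F10 library had 2 Hbegf UMIs (2.39 CPM, 0.29 to 8.65) and the 33 macrophage/monocyte-like cells 1.

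Tgfa encodes transforming growth factor alpha (ENSMUSG00000029999, chromosome 6, 86195223 to 86275719, plus strand). In vein-like ECs it had 18 and 28 UMIs, 6.33 CPM (3.75 to 10.0) in control and 9.41 CPM (6.25 to 13.6) in B16-F10 lungs, and these intervals overlapped. In gCap-like ECs it had 15 and 36 UMIs, 0.42 CPM (0.23 to 0.69) and 0.95 CPM (0.66 to 1.31), a log2 ratio of 1.18 (0.28 to 2.16). It was the only member past 2-fold among the 4 members measured in that class, but the interval included 0 when cells were thinned (1.45, -0.34 to 3.58), and over all ECs the log2 ratio was 0.43 (-0.05 to 0.91). The vein-like level was above the gCap-like level in both libraries. Artery-like ECs had 10 and 5 UMIs and aCap-like ECs 13 and 12, with overlapping intervals in both. LEC-like ECs had 8 UMIs in 4 of 58 control cells, 16.6 CPM (7.18 to 32.8), and 0 in 51 B16-F10 cells. Against a floor of 3 counts, which is 6.23 CPM there, that is a log2 ratio of -1.42 or lower. The exact interval of the 0 count reaches 7.66 CPM, so the intervals of the 2 libraries overlapped.

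Nrg1 encodes neuregulin 1 (ENSMUSG00000062991, chromosome 8, 31814551 to 32884029, minus strand). The gene spans 1069 kb, and whether reads in its introns were counted is not stated, so its level depends on that setting more than that of short genes. In gCap-like ECs it had 35 and 37 UMIs, which was 0.97 CPM in both libraries, with a log2 ratio of 0.00 (-0.71 to 0.71). The counts were 7 and 2 in vein-like, 4 and 2 in artery-like, 5 and 7 in aCap-like and 0 and 1 in LEC-like ECs. In the Csf2/Sox9 cluster of the B16-F10 library it had 29 UMIs in 9 of 340 cells, 8.63 CPM (5.78 to 12.4), a log2 ratio of 3.15 over gCap-like ECs of that library, and 1 cell held 8 of them. In control 1 of the 9 cells held 5 UMIs. Among non-endothelial cells, the 33 macrophage/monocyte-like cells of the B16-F10 library had 15 UMIs in 7 cells, 27.4 CPM (15.3 to 45.1).

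Areg (amphiregulin, ENSMUSG00000029378, chromosome 5, 91139599 to 91148432, plus strand), Ereg (epiregulin, ENSMUSG00000029377, 91074622 to 91093646 of the same chromosome, plus strand) and Btc (betacellulin, ENSMUSG00000082361, 91357261 to 91402994 of the same chromosome, minus strand) lie close to each other and were barely detected in ECs. In gCap-like ECs the UMIs of Areg numbered 4 in the control and 1 in the B16-F10 library, those of Ereg 1 and 0, and those of Btc 0 and 2. At this depth a floor of 3 counts is 0.083 CPM in control and 0.079 CPM in B16-F10 gCap-like ECs. Over the other named vessel classes, Areg had 1 UMI, Ereg 0 and Btc 2 in both libraries together. Areg was counted in the cluster with epithelial markers, with 9 and 22 UMIs or 10.5 CPM (4.78 to 19.8) and 17.4 CPM (10.9 to 26.3), and 1 cell held 18 of the 22. Expression of these 3 ligands by ECs was therefore at or close to the detection limit.

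Erbb2 (ENSMUSG00000062312, chromosome 11, 98412470 to 98437716, plus strand) was counted in every named vessel class, and in gCap-like, aCap-like, artery-like and vein-like ECs its intervals overlapped between libraries. In gCap-like ECs it had 455 and 468 UMIs, 12.6 CPM (11.5 to 13.8) and 12.3 CPM (11.2 to 13.5), a log2 ratio of -0.04 (-0.23 to 0.15). Vein-like ECs had 13.02 and 12.1 CPM (37 and 36 UMIs) and artery-like ECs 8.82 and 10.0 CPM (15 and 16 UMIs), with intervals that overlapped those of gCap-like ECs. In aCap-like ECs it was lower, at 2.44 CPM (1.67 to 3.44) and 2.21 CPM (1.41 to 3.28), and these intervals lay below those of gCap-like, vein-like and artery-like ECs. LEC-like ECs had 1 and 3 UMIs, 2.08 CPM (0.053 to 11.6) and 6.23 CPM (1.29 to 18.2), too few for a comparison. Among the 7 gCap-like clusters the level ran from 10.2 to 17.3 CPM in control and from 10.8 to 14.2 CPM in B16-F10 lungs, and in each cluster the interval of the ratio included 0. In the Csf2/Sox9 cluster Erbb2 had 18 UMIs in the B16-F10 library, 5.36 CPM (3.17 to 8.46), a log2 ratio of -1.20 relative to gCap-like ECs.

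Egfr (ENSMUSG00000020122, chromosome 11, 16752203 to 16918158, plus strand), which encodes the EGF receptor itself, was near the detection limit in ECs. It had 10 and 8 UMIs in gCap-like ECs, 0.28 CPM (0.13 to 0.51) and 0.21 CPM (0.091 to 0.41), 6 and 5 UMIs in aCap-like ECs, 0 in artery-like ECs of both libraries, and 1 in all vein-like and 1 in all LEC-like ECs. The Csf2/Sox9 cluster held 1 Egfr UMI in 340 B16-F10 cells. In the cluster with epithelial markers it had 66 and 63 UMIs, 76.7 CPM (59.3 to 97.6) and 49.8 CPM (38.3 to 63.7). A single control cell held 20 of the 66 UMIs, and a single B16-F10 cell 14 of the 63. The related receptors Erbb3 and Erbb4 had 28 and 23 UMIs in gCap-like ECs over both libraries, too few to be measured.

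**Figure D3:**
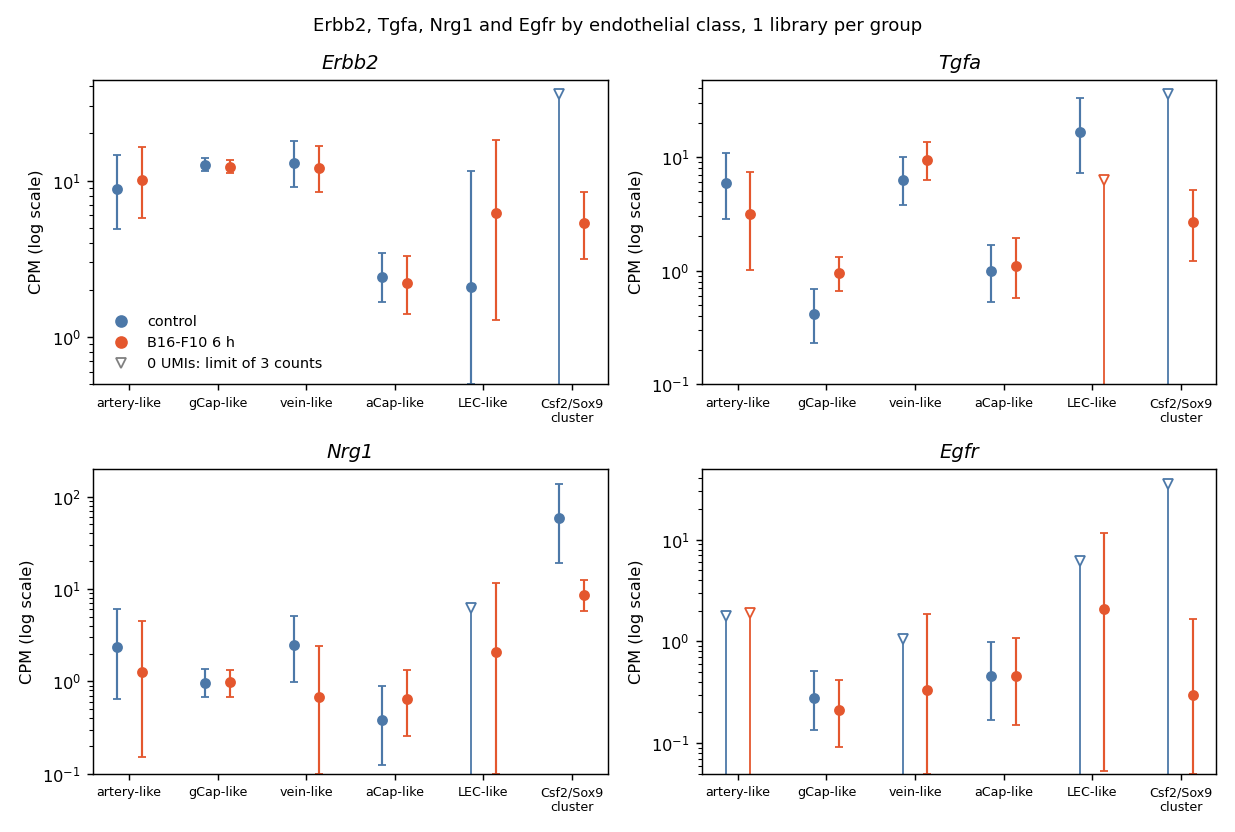
Levels of Erbb2, Tgfa, Nrg1 and Egfr by endothelial class in the control and the B16-F10 library, in CPM on log axes, with exact Poisson 95% intervals and open triangles at the limit of 3 counts where no UMI was counted. Intervals that reach below the axis are cut at its lower end. Erbb2 is lower in aCap-like than in gCap-like ECs in both libraries, and its intervals overlap between libraries in the 5 named classes.

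Genes whose level followed that of a member most closely were sought over the 10 sums of 5 named classes in 2 libraries, with Pearson's r of log2(CPM + 1) among 11794 genes. For Hbegf they were Lama5 (0.970), Sod1 (0.969), Azi2 (0.964), Abracl (0.961) and Mcam (0.952). For Erbb2 they were Fam181b (0.971), Gm20631 (0.970), Ly6g6d (0.968), Plxnc1 (0.967) and Gm4951 (0.963). The 10 sums come from the same 2 libraries, and these values are a description. They leave out the Csf2/Sox9 cluster, and the sums of LEC-like ECs held only 1 and 0 Hbegf UMIs. The other 6 genes had fewer than the 200 UMIs required.

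To place the members within their pathway, a list of 76 genes of the EGF system was examined, of which 65 were measured in gCap-like ECs. There, 11 were higher by at least 2-fold in B16-F10 lungs and 2 lower, against 2.96% and 2.63% of all measured genes, and the list median was 0.14 against -0.04. Most of the genes past 2-fold, 9 of 11, belonged to the sub-list of genes that ERK signalling is known to induce. The others were Tgfa and Cd82. The list was written with earlier results of these data known, and its counts are a description.

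Genes that act on ligand release, in either direction, lay between -0.34 and 0.96 on the log2 scale. None of the 12 measured genes passed 2-fold, and their median was 0.55 against -0.04 over all measured genes. Adam17, the main protease that cuts HB-EGF and TGF-alpha, was at 62.6 and 63.4 CPM, a log2 ratio of 0.02 (-0.06 to 0.10). Adam9 was at 33.0 and 64.3 CPM, a log2 ratio of 0.96 (0.86 to 1.06), Adam15 at 0.57 (0.52 to 0.62) and Adam10 at -0.34 (-0.40 to -0.28). Nrd1, a peptidase that enhances the cutting of HB-EGF, was at -0.13. Timp3, an inhibitor of ADAM17 and other metalloproteases, was at 158 and 308 CPM, a log2 ratio of 0.96 (0.92 to 1.01).

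Of the cell surface proteins that bind HB-EGF, Cd82 had the largest difference, with 4.63 and 23.5 CPM and a log2 ratio of 2.34 (2.1 to 2.59). The tetraspanin Cd9, a partner of membrane-held HB-EGF, was at 864 and 836 CPM (-0.05, -0.07 to -0.03). The heparan sulphate proteoglycan Sdc4 was at 0.72 (0.60 to 0.85), Cd44 at -0.25 (-0.37 to -0.13), and Sdc1 was not measured, with 29 UMIs.

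Other ligands had low counts. Egf had 71 UMIs and a log2 ratio of 0.12 (-0.59 to 0.84), Nrg2 61 UMIs and -0.61 (-1.40 to 0.17), and Nrg3 57 UMIs and -2.49 (-3.71 to -1.45), which was 1.33 CPM in control and 0.24 CPM in B16-F10 lungs. The count of Nrg3 lay close to the minimum of 50 UMIs. After thinning or with free RNA subtracted, the list had only 1 gene lower by 2-fold. Epgn and Nrg4 had 5 and 12 UMIs.

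Of the 11 measured genes that attenuate receptor signals, 1 passed 2-fold. Lrig3, of a family of transmembrane proteins that act on ERBB receptors, was at 36.6 CPM in control and 15.5 CPM in B16-F10 lungs, a log2 ratio of -1.24 (-1.38 to -1.10). The phosphatase gene Ptpn1 was at 0.74 (0.68 to 0.80), Ptprj at 0.46, Socs5 at 0.31, the ubiquitin ligase genes Cbl and Cblb at 0.13 and -0.10, and Lrig2 at -0.33. The 16 genes of the adaptor list lay between -0.69 and 0.69, with a median of 0.04. Erbin, which binds ERBB2, was at 414 and 267 CPM, a log2 ratio of -0.63 (-0.67 to -0.59), and Gab2, Pik3r1, Eps15 and Pik3ca were at 0.14, 0.14, -0.24 and -0.37.

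Genes that ERK signalling is known to induce differed most. Of 15 measured, 9 were past 2-fold higher and none lower, against 2.96% and 2.63% of all measured genes, and the median log2 ratio was 1.15. As for Hbegf, class ratios of these genes combine levels within clusters with the mix of clusters, and the part of each was not tested. Myc, a growth-promoting transcription factor, was at 0.50 and 13.1 CPM, a log2 ratio of 4.71 (4.03 to 5.47), and Egr1, an immediate early transcription factor, at 10.6 and 138 CPM (3.71, 3.56 to 3.86). The AP-1 genes Fosl1 and Fos were at 2.69 and 2.23, Spry4 at 2.22, Ier3 at 2.08, the ERK phosphatase gene Dusp5 at 1.22, Phlda1 at 1.15 and Spry1 at 1.04. Dusp6, another ERK phosphatase gene, was at 0.95 (0.90 to 1.00) and Etv5 at 0.25 (-0.12 to 0.63). Spry2 was at -0.78 (-0.91 to -0.66), Spred2 at -0.33, Spred1 at -0.11 and Dusp4 at -0.24 (-0.97 to 0.47). These genes also respond to other signals, and Spry4 and Myc are among the markers by which the study defined its reactive capillary cells, in part on these libraries.

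**Figure D4:**
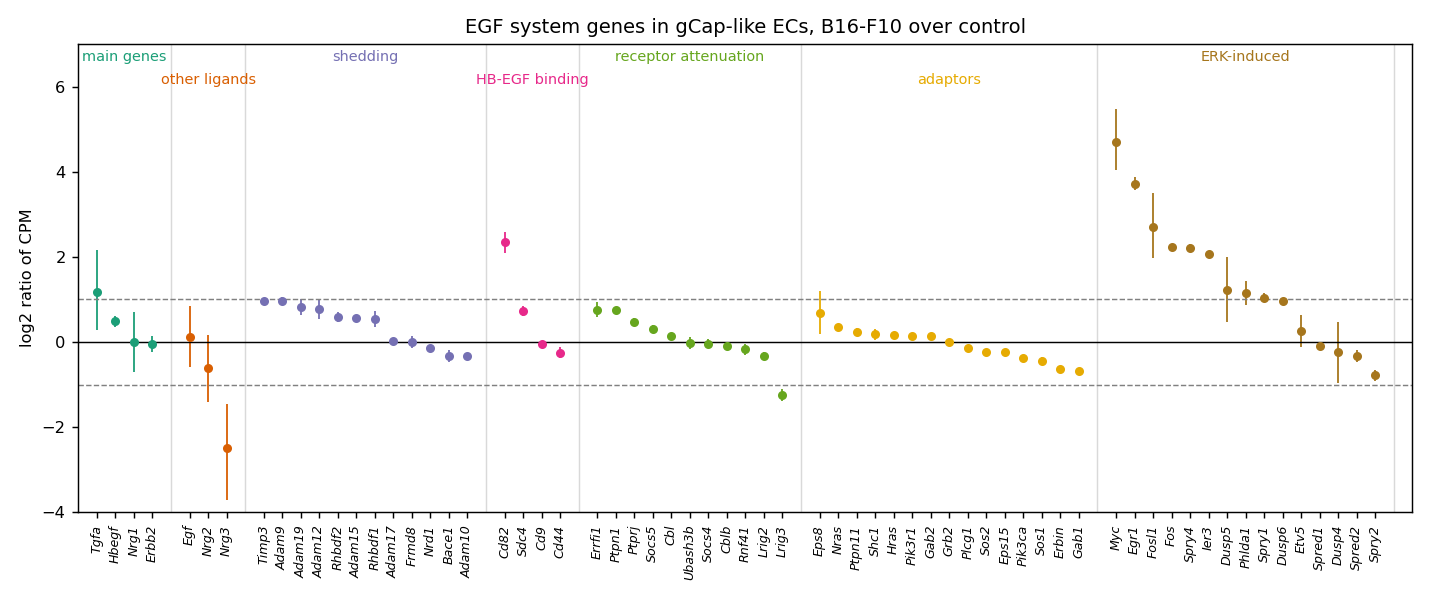
Log2 ratio of CPM, B16-F10 over control, of EGF system genes measured in gCap-like ECs, grouped by role, with exact 95% intervals for counting error. The dashed lines mark 2-fold; 11 genes lie above the upper line, 9 of them in the ERK-induced group, and 2 below the lower line.

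In the other classes the list had 11 genes higher by 2-fold and 2 lower of 58 measured in aCap-like ECs (all genes 2.16% and 2.1%), 4 and 0 of 49 in artery-like ECs (1.88% and 1.47%), 6 and 0 of 53 in vein-like ECs (1.62% and 0.907%) and 4 and 0 of 34 in LEC-like ECs (1.53% and 2.01%). For aCap-like, artery-like and vein-like ECs the list medians were -0.06, 0.00 and 0.06. In the same order Spry4 was at 1.40, 1.53 and 0.71, and Ier3 at 1.72, 1.33 and 1.28. Errfi1, an attenuation gene picked after its values were seen, was at 0.40, 2.40 (1.64 to 3.25) and 1.02 in that order. In gCap-like ECs Errfi1 was at 0.76 (0.60 to 0.93). Cd82 was past 2-fold in aCap-like (1.64), artery-like (1.12) and vein-like ECs (1.05). Nrg3 was past 2-fold lower in aCap-like ECs, at 3.81 and 1.47 CPM (-1.37, -2.29 to -0.54), and was not measured in artery-like and vein-like ECs. Of the members with at least 50 UMIs in these classes, Hbegf in aCap-like ECs was past 2-fold and the others were not.

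Within the B16-F10 library, the Csf2/Sox9 cluster differed from gCap-like ECs in many genes, with 9.99% of 12199 genes higher and 28.8% lower by 2-fold and a median log2 ratio of -0.37. Of 60 measured EGF system genes, 16 were higher and 8 lower by 2-fold. When ratios were taken relative to the median of all genes, 17 were higher and 7 lower, against 15.7% and 20.3% of all genes. On the unshifted scale the highest of the 60 were Fosl1 (6.61), Dusp5 (5.76), Hbegf (5.26), Myc (4.58), Phlda1 (4.02), Errfi1 (3.19) and Nrg1 (3.15). Errfi1, an inhibitor that binds the EGF receptor, was at 203 against 22.3 CPM. Of the 4 measured genes for proteins that bind HB-EGF, Cd44 (2.75), Cd82 (2.73) and Sdc4 (2.25) were higher and Cd9 was at -0.88 (-0.96 to -0.81). Also past 2-fold higher were Timp3 (2.35) and the genes of the inactive rhomboid proteins that carry ADAM17 to the cell surface, Rhbdf2 (1.33) and Rhbdf1 (1.15). Adam17 itself was at -0.20. Among feedback genes, Spry4 was higher (1.42) and Spry1 (-3.79) and Dusp6 (-2.09) were lower. The adaptor genes Plcg1 (-2.14) and Gab1 (-1.94), Bace1 (-1.65) and Erbb2 (-1.20) were also lower. Relative to the median, the values of Hbegf, Adam17 and Erbb2 were 5.63, 0.18 and -0.83, so that Erbb2 was then lower by less than 2-fold. Errfi1, Bace1, Plcg1, Gab1 and the rhomboid genes were picked after their values were seen.

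**Figure D5:**
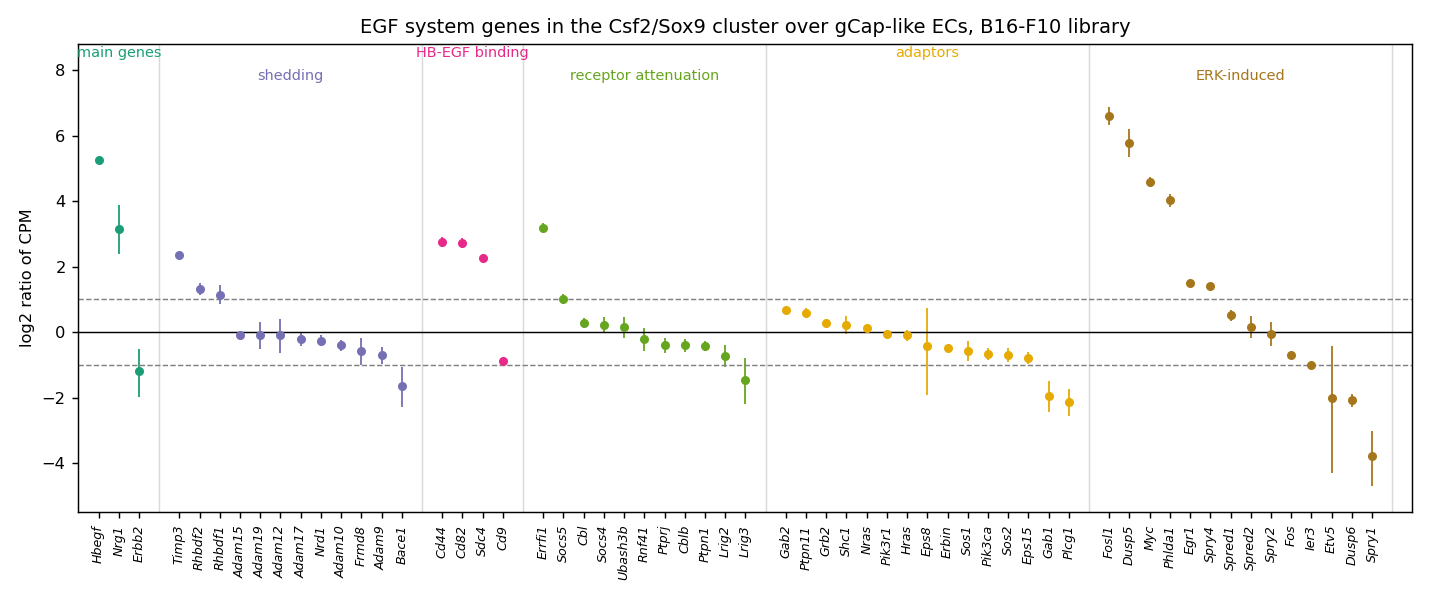
Log2 ratio of CPM, Csf2/Sox9 cluster over gCap-like ECs within the B16-F10 library, of measured EGF system genes, grouped by role, with exact 95% intervals for counting error. The dashed lines mark 2-fold; Hbegf lies at 5.26, and 16 genes lie above the upper and 8 below the lower line.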

How the data were processed

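The authors deposited raw counts of UMIs per gene and barcode for 2 libraries, with no filter or normalization; the file headers and the submitters' processing notes name Cell Ranger 7.2.0, and the notes also Seurat 4.4.0 and the mm10 genome. The version in the file headers applies to the deposited counts, and the methods give another Cell Ranger version. The labels name a v2 kit, but the 1597090 and 1779952 barcodes listed are more than its barcode set holds. Which kit was used instead is not given in the sources used here. Whether intron reads were counted is not given in the sources used here.

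The limits were 1000 to 5000 genes per cell and less than 20% of UMIs from mitochondrial genes. Scrublet in scanpy 1.11.5 ranked doublets per library, and the highest scores, up to 0.8% per 1000 cells, were removed (564 and 554 cells). Counts were scaled to 10000 per cell, log-transformed and scaled within library. Of 3000 variable genes, 2923 remained without the EGF system genes and the study's interferon and reactive capillary markers. Cells were clustered on 30 components and 20 neighbours with leidenalg 0.10.2 at resolution 0.8, giving 27 clusters. A class needed 3 markers and 50% of its list, each marker at least 1.5-fold above other clusters in 10% of cells; ECs needed 6 of 8 endothelial markers in 50% of cells. Clusters that also passed a non-endothelial list were kept out of the ECs as mixed (816 and 1376 cells).

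For each class and library, UMIs were added up and given as CPM with exact Poisson intervals, ratios with exact conditional binomial intervals and shares with Clopper-Pearson intervals (scipy 1.17.1), all at 95% and without a pseudocount. Since each group is 1 library, no test was run and there is no p-value and no replicate error. Floors use 3 counts. Called means past 2-fold among genes with at least 50 UMIs. Free RNA was estimated from barcodes with 1 to 100 UMIs and the epithelial marker list. The ratio step was tested on simulated data. The members, lists and classes were chosen with earlier results of these data known. Named genes were all members, all list genes past 2-fold in gCap-like ECs and up to 6 more per sub-list by UMIs; 1 gene that this rule names is counted in its list but not reported here. Nrdc is listed as Nrd1. Coordinates, counted from 1, are from GENCODE M21 on GRCm38, which held 32158 of the 32285 gene IDs. Alternatives changed the cell limits, doublets, clustering, depth, scaling, free RNA and the UMI minimum.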

Additional observations from a re-analysis of the deposited data

Results flagged for a closer look

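Hbegf had opposite directions between vessel classes, with intervals off 0 as reported. Its log2 ratio was 0.49 in gCap-like, 2.84 in aCap-like and 0.66 in artery-like ECs, and -0.82 in vein-like ECs. The difference between classes was not tested, and the vein-like value rests in part on a single control cell with 16 of 59 UMIs. The vein-like interval included 0 without the highest cell of each library (-0.50, -1.20 to 0.20), after thinning (-1.18, -2.70 to 0.18) and with no upper limit of genes (-0.31, -0.76 to 0.14), and the artery-like interval after thinning and with a minimum of 1500 genes.

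Hbegf was also higher in the B16-F10 library in barcodes outside the cells compared in the report. In barcodes with 1 to 100 UMIs it was 53.3 CPM against 21.2 CPM in control, and in those with over 100 UMIs and under 300 genes 56.5 against 19.5 CPM. Barcodes with at least 300 but under 1000 genes had 104 against 17.1 CPM, those with over 5000 genes 57.8 against 19.6 CPM, and those with 1000 to 5000 genes but at least 20% mitochondrial UMIs 88.5 CPM (13 UMIs in 20 barcodes) against 0 of 85486 UMIs in 6 control barcodes.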

How the results depend on the processing

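The 31 results were recomputed under 13 alternatives and partly under 2 more chosen after seeing the data. Of 387 values, 361 stayed within the counting interval or within 1.5 times the count, 26 moved, and 0 with an interval off 0 changed sign. The cause of a move was not tested unless given. In gCap-like ECs the log2 ratio of Hbegf was 0.61 without doublet removal, 0.64 and 0.63 with a minimum of 500 and 1500 genes per cell and 2.47 with all ECs summed, which include the Csf2/Sox9 cluster. With every cell thinned to 2000 UMIs, Egfr was at 1.72 and Erbb2 at -0.24. The share of genes past 2-fold was 5.23% higher and 5.73% lower with a minimum of 10 UMIs, which adds genes of low count (866 and 949 genes, against 391 and 348), and 246 and 199 genes passed after thinning. The EGF system list had 1 gene lower with free RNA subtracted and after thinning. Over all ECs, Hbegf was at 2.34 after thinning, 2.32 without doublet removal, 2.37 with a minimum of 1500 genes and 2.25 with no upper limit of genes. The cluster's share of Hbegf UMIs was 72.1% after thinning, 69.2% without doublet removal, 70.6% and 70.9% with a minimum of 500 and 1500 genes and 67.9% with no upper limit.

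At Leiden resolution 1.6 the EC cluster highest in Csf2 and Sox9 was another one, aCap-like with 37 B16-F10 cells and 1.05% of the Hbegf UMIs. The cluster that shared 299 of the 349 cells held 74.3%, and 50 cells lay in a cluster with platelet markers. That cluster, with 259 B16-F10 Hbegf UMIs, was kept out of the ECs, so the 74.3% is of fewer UMIs than the reported 74.4%. This comparison was chosen after seeing the data. Hbegf ranged from -1.18 to -0.31 in vein-like and from 0.21 to 0.80 in artery-like ECs, and came to include 0 in the settings named with those results, as did Tgfa in gCap-like ECs. No paired analysis was possible because there is 1 library a group. Depth limits what can be said of Areg, Ereg, Btc and Egfr in ECs and of any gene in LEC-like ECs.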
